A study of Mus musculus with 6 samples.

Results

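Aqp4, Slc1a2, Slc1a3, Gja1, Glul, Aldh1l1, Slc6a11 and Agt are genes of resting, homeostatic astrocytes. They were chosen by name, as 8 of the 32285 genes in the deposited tables, and their levels were followed in whole brain sections and in regions of spots across 3 ages. Astrocytes take up the glutamate and GABA that neurons release, turn glutamate into glutamine and hand it back, and buffer water and ions at the endfeet they place on blood vessels. Their cells are joined to each other by gap junctions. In reactive astrocytes, as found after injury and in the aged brain, intermediate filament and complement genes are raised, while the genes listed here serve the resting functions of the cell.

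The study measured coronal brain sections with Visium, which captures polyadenylated RNA on a grid of barcoded spots, each spot covering several cells. The groups were young mice of 6 months, middle-aged mice of 18 months and old mice of 21 months, with 2 males and 2 sections per age. All were males of the C57BL/6J strain, with no treatment and no transgene named. The sections were 16 µm thick and described as cut at 1 level of the brain. One slide held young 1, young 2, middle 1 and old 1, and a second slide held middle 2 and old 2, so that age and slide are partly confounded.

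The sections held 2573 to 2973 spots and 60938938 to 77557934 unique molecular identifiers (UMIs, each standing for 1 captured RNA molecule). The median UMIs per spot were lowest in the old sections, at 21766 and 20370, against 25904.5 to 30093 in the others. The grids reuse their barcodes, and 1920 of 3389 distinct barcodes occurred in all 6 sections. Clustering of 16741 spots, run without the 8 genes and without other astrocyte genes, gave 22 clusters, of which 18 took the names of 10 regions from marker genes. A region is therefore a group of spots with like transcripts and not an outlined piece of anatomy. Young 1 held only 59 spots of the hippocampal formation, against 183 to 286 in the other sections, and 286 thalamic spots against 379 to 513. Of its 59 hippocampal spots, 5 were of the cluster led by C1ql2, which had 65 to 98 spots in the other sections. The sections thus differed in the tissue they held, and the part of this in the levels of young 1 was not tested.

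Levels are given as CPM, the UMIs of a gene per 1000000 UMIs of the same section or region. In such sums, fewer astrocytes and less RNA per astrocyte cannot be told apart. Transcripts of these genes from other cell types in a spot cannot be separated from those of astrocytes either. Both young sections stood at the ends of the range for several members. Over 80 pairs of a member and a region, young 1 held the lowest level of the 6 sections 41 times and young 2 held the highest level 32 times. No other section was lowest more than 9 times. For Glul, young 1 was lowest in 9 of 10 regions and young 2 was highest in 9 of 10. The share of mitochondrially encoded UMIs was also highest in young 1, at 16.5% against 13.3% to 15.4% in the other 5 sections. Its part in these region levels was not tested. Results that turned on 1 of the young sections are given with and without it.

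The 8 genes are protein coding, and GENCODE M21 (GRCm38) places Slc1a2 on chromosome 2 at 102658659 to 102790784, Slc1a3 on chromosome 15 at 8634124 to 8710764 and Gja1 on chromosome 10 at 56377330 to 56402513. Glul lies on chromosome 1 at 153899944 to 153909723 and Agt on chromosome 8 at 124556534 to 124569706. Aldh1l1, at 90486427 to 90600203, and Slc6a11, at 114131241 to 114249952, both lie on chromosome 6. UMIs were counted per gene, so that the transcripts of a gene were not separated. RefSeq promoters (GRCm38.p6) were matched for 7 of the 8 genes. The 120 bases before the start are shown for Agt and Slc6a11, since these genes had the widest differences between regions and a like pattern across them, and for Aldh1l1, since it was the only member called with age.

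The sequences run 5′ to 3′ toward the start, and capitals mark matches to TATAAA (the TATA box), to the letters CCAAT, or to GGGCGG (the GC box), on either strand.
Agt, chr8:124569707-124569826, minus strand: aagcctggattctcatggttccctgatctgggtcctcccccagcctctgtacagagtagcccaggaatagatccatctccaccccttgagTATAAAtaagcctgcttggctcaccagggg
Slc6a11, chr6:114131121-114131240, plus strand: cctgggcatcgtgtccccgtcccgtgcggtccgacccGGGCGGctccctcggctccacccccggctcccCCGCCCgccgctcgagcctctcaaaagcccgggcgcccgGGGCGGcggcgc
Aldh1l1, chr6:90550673-90550792, plus strand: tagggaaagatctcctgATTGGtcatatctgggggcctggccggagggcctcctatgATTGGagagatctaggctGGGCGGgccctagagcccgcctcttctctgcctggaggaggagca

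The Agt stretch held 1 TATA box, 30 to 25 bases before the start, and had a GC content of 54.2%. The Slc6a11 stretch held no TATA box but 3 GC boxes, and its GC content was 81.7%. The Aldh1l1 stretch held 2 CCAAT boxes and 1 GC box. The RefSeq start used for it lies inside the longer span that GENCODE gives the gene. In the 250 bases before the start, TATAAA occurred in 2 of 7 members and in 12.4% of 32851 promoters, CCAAT in 3 of 7 and 33.8%, and GGGCGG in 4 of 7 and 32.7%. An NFI half-site (TTGGCA) occurred in 0 of 7 members and 12.3% of promoters, an AP-1 site (TGANTCA) in 1 of 7, Gja1, and 6.75%, and a cAMP response element (TGACGTCA) in 0 of 7 and 1.55%. A match is a description of the letters. Agt and Slc6a11, which were high in the same regions, shared no match to these motifs in this window.

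The members did not follow 1 common map of the brain. Of the 10 regions, white matter had the highest mean level of Aqp4, Gja1, Glul and Agt, the surface spots named meninges had the highest level of Slc1a2, Slc1a3 and Aldh1l1, and thalamus had the highest level of Slc6a11. The ratio of the highest to the lowest region ran from 2.27 for Slc1a3 and 2.74 for Aldh1l1 to 9.88 for Slc6a11 and 23.7 for Agt. The regions are clusters of the same spots, so their levels are described without a test. White matter spots had the myelin genes Mal and Mag among their leading genes and had a median of 11275 UMIs. The surface spots were led by Ptgds, Mgp and Myoc, of which Ptgds and Mgp were among the meningeal markers used. A spot covers several cells, so this group need not be meninges alone.

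Slc1a2, which encodes the main glutamate transporter of the forebrain, was highest in the surface spots. Their levels were 1830 and 2125 CPM in the young, 1966 and 2021 in the middle-aged and 2069 and 1931 in the old sections. All 6 lay above the highest value of any other region, 1366 CPM in the hippocampal formation. Hippocampal formation (1279 ± 59.8 CPM, SD, n = 6), isocortex (1185 ± 47.0) and striatum (1121 ± 51.9) followed. Neighbours among these 3 overlapped, and striatum did not overlap thalamus (916 ± 44.0). Choroid plexus and ventricle spots were lowest, at 485 ± 56.7 CPM, with no overlap with the next region. Within isocortex, layer 4 had the highest level (1479 CPM), above layers 2/3 (1223), 6 (1109) and 5 (1067).

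Slc1a3, the second astrocyte glutamate transporter, was also highest in the surface spots, at 457 ± 43.6 CPM (SD, n = 6), without overlap with white matter at 339 ± 28.8. It parted from Slc1a2 in the hypothalamus, which ranked number 3 of 10 regions for Slc1a3 (326 ± 26.5 CPM) and number 8 for Slc1a2 (709 ± 55.6). Its lowest levels, in amygdala and olfactory cortex, choroid plexus, pallidum and thalamus, lay between 201 and 225 CPM and overlapped each other.

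Glul encodes glutamine synthetase, which makes glutamine from glutamate. White matter (984 ± 87.3 CPM, SD, n = 6) and surface spots (979 ± 117) had like levels, which overlapped, and neither overlapped thalamus, at 630 ± 72.9. Amygdala and olfactory cortex were lowest at 296 ± 43.6 CPM. Isocortex and striatum, among the higher regions for Slc1a2, were in the lower part of the order for Glul, at 477 and 464 CPM.

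Slc6a11 encodes a GABA transporter of astrocytes and had a thalamic pattern. In thalamus its levels were 243 and 338 CPM in the young, 318 and 329 in the middle-aged and 332 and 305 in the old sections. Young 1 was the lowest of the 6, and all 6 lay above the highest value of the next region, 211 CPM in pallidum, reticular thalamus and zona incerta. That region (186 ± 20.2 CPM) and hypothalamus (184 ± 34.9) were alike, and isocortex (48.1 ± 4.58), hippocampal formation (47.8 ± 6.01), striatum (37.8 ± 4.81) and amygdala and olfactory cortex (31.5 ± 5.67) were low and overlapped in order. Isocortex was thus high for the glutamate transporter Slc1a2 and low for the GABA transporter Slc6a11. Thalamus was highest for Slc6a11 and ranked number 5 of 10 regions for Slc1a2, at 916 CPM against 1185 in isocortex.

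Aqp4, the water channel of the endfeet, was lowest in isocortex and highest in white matter. White matter levels were 183 and 188 CPM in the young, 145 and 163 in the middle-aged and 163 and 298 in the old sections, of which old 2 stood apart. Isocortex levels were 30.9 and 34.3, 31.2 and 31.5, and 27.4 and 27.4 CPM in the same order. White matter was 4.66 to 10.9 times isocortex within the sections. Surface spots (133 ± 15.2 CPM) and choroid plexus and ventricle spots (132 ± 30.2) came next. Hippocampal formation, at 74.7 ± 4.65 CPM, did not overlap the lower regions.

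Gja1, which encodes a connexin of astrocyte gap junctions, had overlapping levels in white matter (199 ± 20.6 CPM, SD, n = 6) and surface spots (198 ± 18.6). Thalamus followed at 163 ± 10.4 CPM, and isocortex (79.9 ± 6.60) and amygdala with olfactory cortex (60.9 ± 9.34) were lowest. Aldh1l1, a folate enzyme often used to mark astrocytes, had the flattest order apart from Slc1a3, from 59.2 ± 6.10 CPM in surface spots to 21.6 ± 3.46 in amygdala and olfactory cortex. Its layer 4 level in isocortex, 52.7 CPM, was above those of the other layers, 32.0 to 37.5 CPM.

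Agt encodes angiotensinogen, the precursor of the angiotensin peptides, and had the widest range. White matter (187 ± 49.2 CPM, SD, n = 6), hypothalamus (177 ± 21.3), thalamus (169 ± 22.8) and pallidum with reticular thalamus and zona incerta (153 ± 15.8) overlapped each other in order and did not overlap the rest. Isocortex levels were 7.34 and 7.45 CPM in the young, 7.71 and 8.02 in the middle-aged and 8.62 and 8.03 in the old sections. Levels within the hypothalamus were uneven. The cluster led by the peptide genes Pmch, Hcrt, Avp and Oxt had 293 CPM and the other hypothalamic cluster had 94.2. A thalamic cluster with the marker Calb2 had 283 CPM against 140 in the relay cluster led by Prkcd and Tcf7l2. The Calb2 cluster held 44 of 286 and 78 of 513 thalamic spots in the young sections. It held 22 of 379 and 80 of 407 in the middle-aged and 114 of 479 and 100 of 439 in the old. The part of this mix in the Agt values of the region by age was not tested. In white matter the levels were 148 and 201, 161 and 240, and 126 and 243 CPM, and both sections of the second slide, middle 2 and old 2, were the highest.

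**Figure D1:**
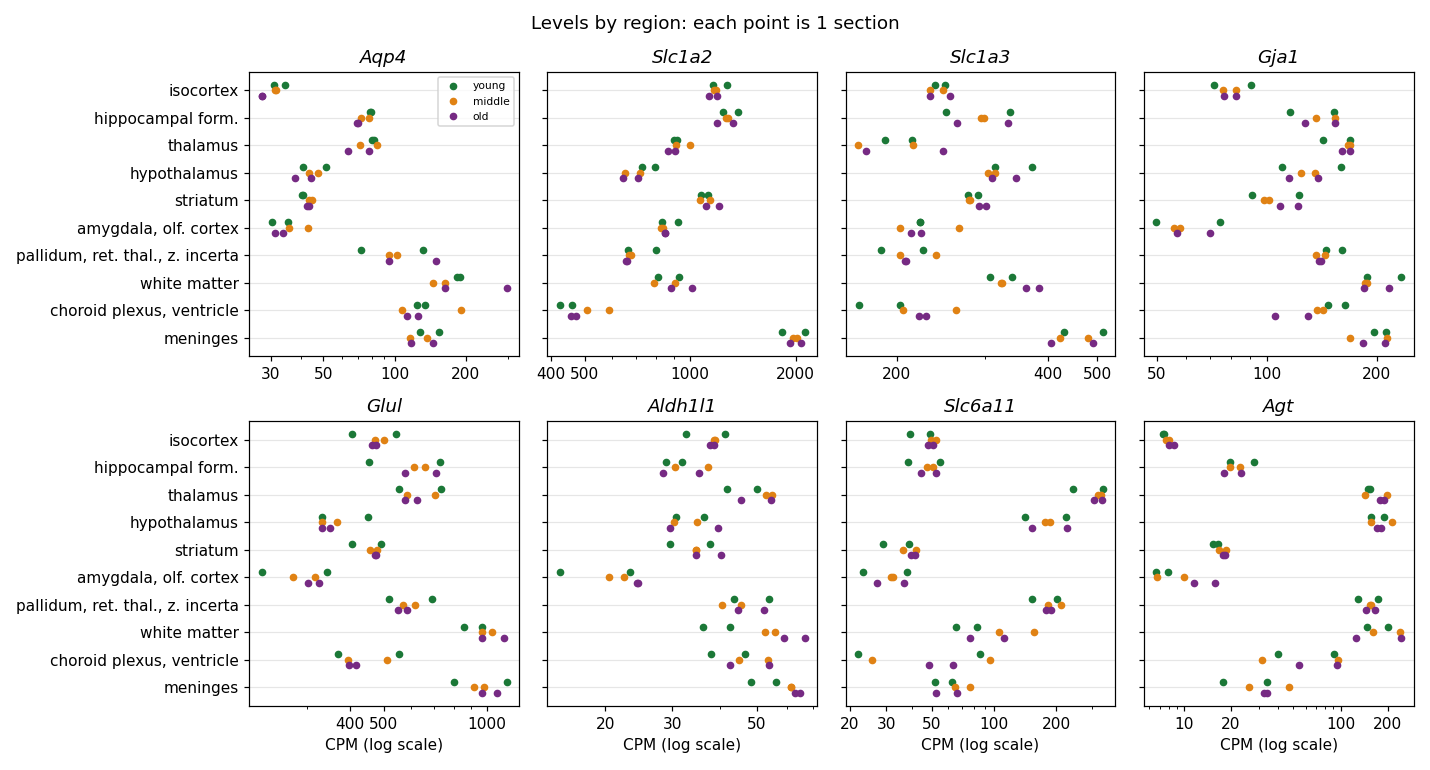
CPM (log scale) of the 8 genes in 10 regions, with 1 point per section coloured by age. Agt and Slc6a11 spread most widely between regions, and the 3 ages of Aldh1l1 do not overlap in white matter.

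The order of the regions depended in part on how spots were grouped. With a Leiden resolution of 1.2 the surface group was smaller, with 43 to 66 spots a section against 157 to 203. The highest levels of Aqp4 (214 CPM), Gja1 (292) and Glul (1062) were then in that group and not in white matter, whose levels were 190, 199 and 984 CPM. Slc1a2 and Slc1a3 were still highest in that smaller group, but at 1612 and 381 CPM, against 1990 and 457 in the larger group. The highest Agt level was in hypothalamus at that resolution (184 CPM, with white matter at 183) and at a resolution of 0.5 (192 CPM). The lowest region of Aqp4 and Agt was isocortex in both.

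Over the 60 region-by-section sums, Pearson correlations of log2(CPM + 1) between members ran from -0.46 for Slc1a2 with Agt to 0.83 for Slc6a11 with Agt. Gja1 had 0.81 with both Aqp4 and Glul, and both glutamate transporters had 0.62 with each other. These sums share sections and the same division into regions, and the values are descriptions. By the same measure, over 9783 genes with a mean of at least 10 CPM, the genes most like Agt were Sparc (0.97), Paqr6 (0.92) and Lgals8 (0.90). Those most like Slc6a11 were Sema4g (0.93), Etnppl (0.91) and Ret (0.90), and those most like Aqp4 were Sdc4 (0.91), Il6st (0.91) and Apoe (0.90), an apolipoprotein of astrocytes and microglia. Gja1 was closest to Gpr37l1 (0.92), Tst (0.86) and Asrgl1 (0.86), Glul to Htra1 (0.94), Ppp1r3c (0.86) and Lcat (0.86), and Aldh1l1 to Epas1 (0.85), Gpr37l1 (0.85) and Axl (0.84). Slc1a2 was closest to mt-Nd5 (0.88), Dio2 (0.87) and Cxcl14 (0.86), and Slc1a3 to Prex2 (0.76), S1pr1 (0.75) and P2ry12 (0.74).

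The summed level of 28 other astrocyte genes followed Gja1 (0.87), Aldh1l1 (0.85) and Glul (0.79) most closely and Slc1a2 least (0.17). The summed level of 8 neuron markers had -0.64 with Aqp4 and 0.46 with Slc1a2, and that of 10 oligodendrocyte markers had 0.63 with both Aqp4 and Agt and -0.41 with Slc1a2. The sum of 8 endothelial markers had 0.86 with Aqp4 and 0.85 with Aldh1l1. CPM in a region depend on the other RNA in its spots, and the part of this mixture in the region levels was not tested.

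The first comparison by age asked whether whole sections lost or gained these transcripts between 6, 18 and 21 months. No member was called in any of the 3 comparisons. A call means a two-sided edgeR quasi-likelihood p under 0.05 after Benjamini-Hochberg adjustment over all genes tested. In old against young, 0 of 8 members were called, against 29 of 17673 genes (0.164%), and in middle against young, 0 of 8, against 12 genes (0.0679%). In old against middle, 0 genes were called (0.0%), with 361 genes and 0 members at an unadjusted p under 0.05. The median log2 fold change of the members in old against young was -0.02, and that of all genes was -0.0023. The 95% intervals below give the size of change that 2 sections per age leave undecided.

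Slc1a2 levels in whole sections were 1047 and 1162 CPM in the young, 1079 and 1059 in the middle-aged and 1056 and 1048 in the old. Young 2 was the highest and young 1 the lowest, so the young overlapped both older groups. The log2 fold change from young to old was -0.12 (95% interval -0.26 to 0.02, adjusted p = 0.447). Slc1a3 levels were 261 and 275, 264 and 261, and 287 and 253 CPM, again with overlap, and its change was -0.04 (-0.20 to 0.12).

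Glul levels were 456 and 622 CPM in the young, 569 and 515 in the middle-aged and 562 and 520 in the old sections. Both young sections lay outside the range of the other 4, 1 below and 1 above. The group means of 539 ± 117, 542 ± 38.0 and 541 ± 29.8 CPM (SD, n = 2) were close, with a log2 change from young to old of -0.04 (-0.37 to 0.28). Without young 1 the change was -0.22 and without young 2 it was 0.17, and neither was called (adjusted p = 0.264 and 0.369).

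Slc6a11 levels were 81.4 and 113, 106 and 116, and 106 and 115 CPM. Young 1 was the lowest, and young 2 lay among the older sections. The change from young to old was 0.14 (-0.19 to 0.47), and -0.05 without young 1. Aqp4 levels were 59.1 and 65.0, 62.1 and 59.2, and 57.9 and 68.8 CPM, with a change of -0.02 (-0.22 to 0.18), and Gja1 levels were 104 and 131, 117 and 117, and 123 and 118 CPM, with a change of -0.01 (-0.22 to 0.19).

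Aldh1l1 levels were 33.8 and 40.1 CPM in the young, 40.3 and 40.5 in the middle-aged and 40.1 and 42.2 in the old sections. Young 1 was low, and the other 5 sections lay between 40.1 and 42.2 CPM. The change from young to old was 0.11 (-0.05 to 0.27, adjusted p = 0.551). Agt levels were 62.2 and 59.0 CPM in the young, 65.5 and 76.9 in the middle-aged and 68.5 and 79.2 in the old. Both young sections were below all older ones, and middle 2 and old 2, the sections of the second slide, were highest. The change of 0.23 had a 95% interval of 0.02 to 0.45 and an unadjusted p of 0.0390, and it did not pass over all genes (adjusted p = 0.367). With slide as a block it was 0.13, and with equal numbers of spots of each region 0.16.

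**Figure D2:**
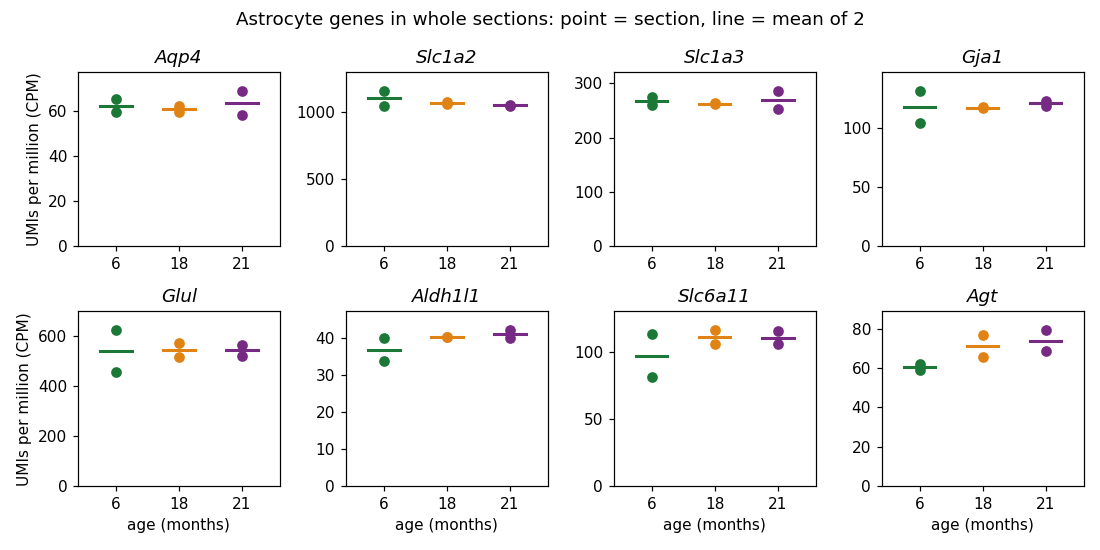
CPM of the 8 genes in whole sections at 6, 18 and 21 months, each point a section and each line the mean of 2, with axes from 0. For Agt both young sections (62.2 and 59.0 CPM) lie below the 4 older ones, and for Glul the young sections (456 and 622 CPM) are the lowest and the highest of the 6.

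**Figure D3:**
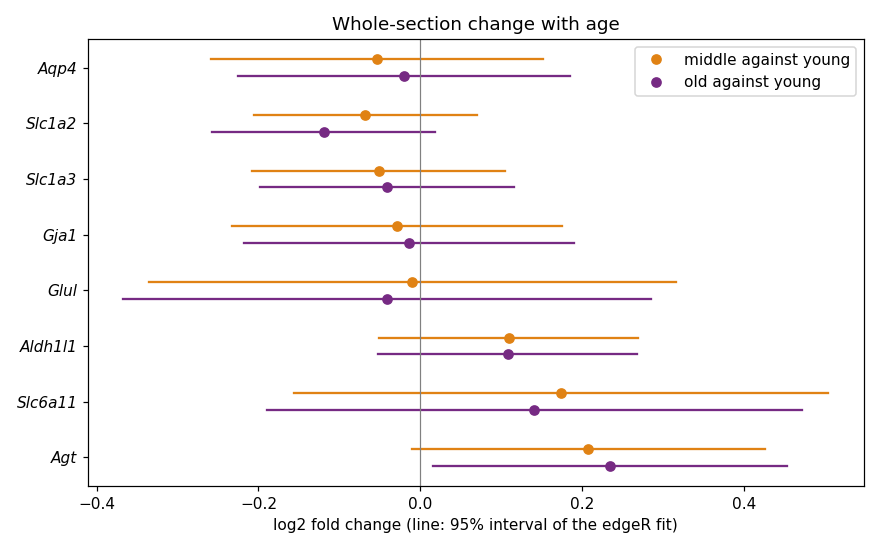
Log2 fold changes in whole sections of middle-aged and old against young mice, with 95% intervals of the edgeR fit. All intervals include 0 except that of Agt in old against young (0.02 to 0.45), and no member passed the adjusted threshold.

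Among the genes related to the members, whole sections also showed few calls. Of 28 other astrocyte genes, of 17 genes of the glutamate and GABA cycle, of 14 endfoot genes, of 7 connexins, of 13 folate one-carbon genes and of 11 renin-angiotensin genes, 0 were called in old against young, and their medians ran from -0.05 to 0.06. Of 25 reactive astrocyte genes, 0 rose and 1 fell: Hspb1, a small heat shock protein, at -0.54. The median of the reactive list was 0.35, against -0.0023 for all genes, with 21 of 25 above 0. Gfap, the intermediate filament of reactive astrocytes, was 75.4 and 74.6 CPM in the young, 87.5 and 92.4 in the middle-aged and 117 and 175 in the old sections. Its groups did not overlap, and its change of 0.91 did not pass over all genes in whole sections (adjusted p = 0.214).

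White matter was the only region in which a member was called. Between young and old, 1 of 80 values of a member in a region passed, that of Aldh1l1 in white matter. In that region 309 of 12616 genes were called (2.45%), 211 higher and 98 lower. Aldh1l1 levels there were 36.1 and 42.4 CPM in the young, 52.4 and 55.7 in the middle-aged and 58.8 and 66.8 in the old sections, from 123 to 233 UMIs per section. The 3 ages did not overlap. The log2 fold change from young to old was 0.62 ± 0.14 (SE, 95% interval 0.35 to 0.90, adjusted p = 0.00795, edgeR), and from young to middle-aged 0.43 (0.15 to 0.71), which was not called (adjusted p = 0.0928, with 0 of 8 members and 386 genes, 3.06%, called).

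An interaction with the section as a block tested whether age acted alike in white matter and in all other spots. Those other spots included an unnamed cluster of 351 spots with 14 white matter markers among its 50 leading genes. They also included an unnamed cluster of 789 spots with 8 such markers and 8 of pallidum, reticular thalamus and zona incerta. The change of Aldh1l1 from young to old was larger in white matter by 0.55 ± 0.14 on the log2 scale (SE, adjusted p = 0.0182). It was the 1 member of 8 called, against 239 of 16906 genes (1.41%). Slc1a3 (0.21, adjusted p = 0.298) and Glul (0.18, adjusted p = 0.322) had unadjusted p-values of 0.0141 and 0.0168 and were not called. The Aldh1l1 call in white matter was lost with DESeq2 (adjusted p = 0.212), with slide as a block (0.0695), without young 1 (0.130) and without old 2 (0.211), with log2 values of 0.52 to 0.62 in these fits. The call of the interaction was lost with DESeq2 (adjusted p = 0.271), with limma on differences within sections (0.435) and without any 1 of young 1, young 2, old 1 or old 2 (0.0531 to 0.370), with values of 0.49 to 0.60. The first slide held 1 old section, old 1 (58.8 CPM), which lay above both young sections and middle 1. No fit of that slide alone was run.

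Levels of oligodendrocyte and neuron markers in the white matter spots also differed between ages, with most calls between young and middle-aged. The summed level of 10 oligodendrocyte markers was 51603 and 56153 CPM in the young, 47155 and 41507 in the middle-aged and 49458 and 46849 in the old sections. The sum of 8 neuron markers was 918 and 820, 1213 and 1506, and 1037 and 1010 CPM. In middle against young, 6 of 10 oligodendrocyte markers fell and 5 of 8 neuron markers rose. In old against young, 1 of 10 oligodendrocyte markers fell, Mal, and 0 of 8 neuron markers were called, with a median of 0.16. The part of this mixture in the Aldh1l1 levels was not tested.

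A subset of 120 white matter spots per section, those with the highest share of oligodendrocyte markers, was added after these values had been seen. In it, oligodendrocyte markers were 5.27% to 6.92% of UMIs, against 4.15% to 5.62% in all white matter spots, and the neuron marker sum was 340 to 689 CPM. The subset held 1168972 to 1721080 UMIs per section and was fitted with edgeR only. The alternatives under which the Aldh1l1 call in all white matter spots was lost were not run on it. Aldh1l1 levels were 28.6 and 23.95 CPM in the young, 39.5 and 46.8 in the middle-aged and 54.3 and 55.2 in the old sections. The ages did not overlap, and the change from young to old was 0.97 ± 0.22 (SE, adjusted p = 0.00664), with 2 of 8 members called against 253 of 10176 genes (2.49%). The other was Slc1a3, at 246 and 275, 319 and 336, and 403 and 374 CPM, which rose by 0.50 ± 0.11 (SE, adjusted p = 0.00454).

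In the same subset, 4 of 8 members changed more than in all other spots, against 302 of 16938 genes (1.78%). Those other spots included the rest of the white matter spots. The differences of the changes were 0.85 for Aldh1l1, 0.63 for Aqp4, 0.54 for Slc1a3 and 0.37 for Slc1a2 (adjusted p = 0.0161, 0.00103, 5.88e-05 and 0.00480). Slc1a2 levels in the subset were 692 and 778, 888 and 770, and 1013 and 852 CPM, with no overlap between young and old. Aqp4 levels were 100 and 151, 128 and 169, and 142 and 254 CPM, and overlapped. Agt levels were 60.8 and 139, 76.7 and 168, and 54.3 and 122 CPM, which overlapped fully. In middle against young, Slc6a11 was called there (0.78, adjusted p = 0.0461), as 1 of 8 members against 311 genes (3.06%).

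**Figure D4:**
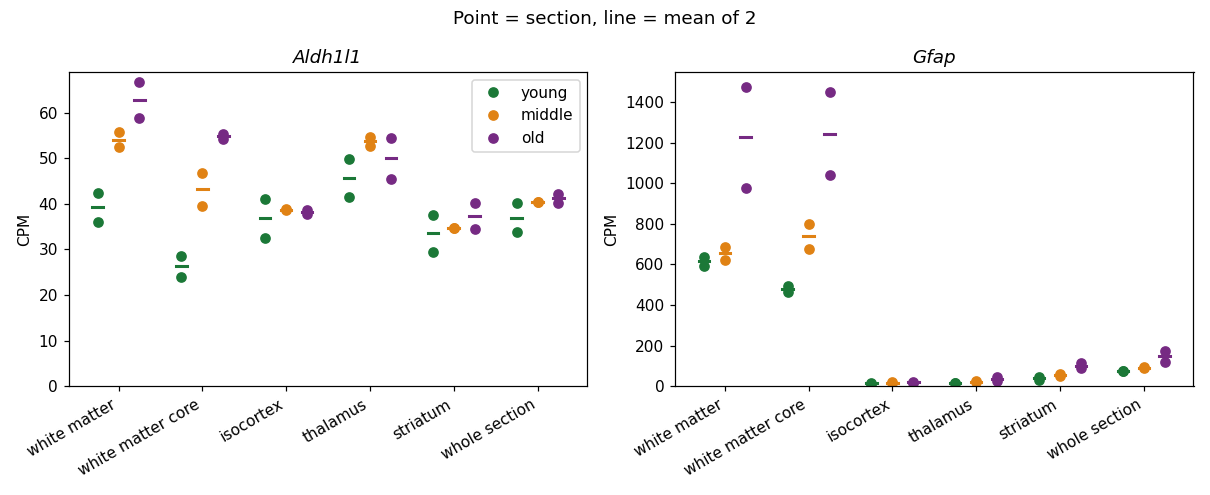
CPM of Aldh1l1 and Gfap by age in white matter, its subset of 120 spots, 3 other regions and whole sections, each point a section and each line the mean of 2. Aldh1l1 in white matter rises from 36.1 and 42.4 to 58.8 and 66.8 CPM, and Gfap there is highest in both old sections (976 and 1476 CPM).

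The remaining white matter values did not pass. Aqp4 was 0.26 in old against young (95% interval -0.71 to 1.22, adjusted p = 0.842). This value turned on the 2 old sections, with 0.62 (adjusted p = 0.00312) without old 1 and -0.24 without old 2. Agt had a change of 0.03 (-1.33 to 1.40), and -0.40 with slide as a block. Slc6a11 levels were 82.4 and 65.6 CPM in the young, 106 and 157 in the middle-aged and 76.9 and 112 in the old sections. Its middle-aged sections lay above both young ones, and its log2 change of 0.78 to the middle-aged was not called (adjusted p = 0.315). It was called with slide as a block, at 0.50 (adjusted p = 0.0491), with only the groups compared (0.0478), with no filter on low counts (4.34e-06), and without old 1 (0.0385) or old 2 (0.0399).

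In white matter, 7 of 23 tested reactive astrocyte genes rose and 0 fell in old against young, with a median of 0.98, against 0.14 for the 8 members and 0.0008 for all genes. C4b, a complement gene, rose by 2.52, from 174 and 145 CPM in the young to 336 and 355 and then 949 and 962. Gfap was 636 and 594, 624 and 688, and 976 and 1476 CPM, and rose by 0.93 (adjusted p = 0.0232). This call was lost with only the groups compared (adjusted p = 0.0927) and without either young or either middle-aged section (0.0937 to 0.191). Aspg (1.63), S1pr3 (1.26) and Cd44 (1.13) rose as well, and Osmr and Timp1, at lower levels, made up the 7.

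Of the 28 other astrocyte genes, 0 were called in white matter, with a median of 0.06 and 19 above 0. In the interaction with all other spots 1 of the 28 was called, Acsbg1, an acyl-CoA synthetase, at 0.38 (adjusted p = 0.0262). Its white matter levels were 118 and 109, 128 and 164, and 131 and 163 CPM. Of the members' own families, 0 of 13 folate one-carbon genes, 0 of 6 tested connexins, 0 of 13 tested endfoot genes and 0 of 3 tested renin-angiotensin genes were called there. Of 16 tested genes of the glutamate and GABA cycle, 1 fell, the glutamine transporter Slc38a2, at -0.65 (adjusted p = 0.000180). In middle against young it also fell (-0.61), and Gad1, Gad2 and Slc17a6, genes of neurons, rose. Among the microglia markers, C1qa, Cx3cr1, Aif1 and Csf1r rose in old against young, by 0.58 to 1.31.

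In the other 9 regions no member was called in old against young, where the share of all genes called ran from 0.00746% in the hippocampal formation to 0.359% in pallidum, reticular thalamus and zona incerta. The shares between these were 0.0348% in amygdala and olfactory cortex, 0.05% in hypothalamus, 0.0724% in thalamus, 0.101% in choroid plexus and ventricle, 0.143% in striatum, 0.173% in isocortex and 0.217% in meninges. In middle against young, 0 of 8 members were called in each of these 9 regions, with 0.0% of genes called in the hippocampal formation, 0.0087% in amygdala and olfactory cortex, 0.0434% in thalamus, 0.05% in hypothalamus, 0.0589% in choroid plexus and ventricle, 0.0717% in striatum, 0.193% in isocortex, 0.198% in pallidum, reticular thalamus and zona incerta and 0.364% in meninges. When the change from young to old in a region was set against that in its other spots, 0 of 8 members were called in each. The shares of genes called were 0.0% in hippocampal formation and hypothalamus, 0.0118% in striatum, 0.0119% in thalamus, 0.1% in isocortex, 0.235% in meninges, 0.111% in amygdala and olfactory cortex, 0.248% in pallidum, reticular thalamus and zona incerta and 0.513% in choroid plexus and ventricle.

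The direction of the members over the 10 regions depended on single sections, on young ones for some members and on old ones for others. Slc6a11 had positive values in 9 of 10 regions (median 0.08), but in 2 without young 1 (-0.13) and in 10 without young 2 (0.30). Aldh1l1 had positive values in 9 (0.09), in 5 without young 1 (0.01) and in 10 without young 2 (0.20). Gja1 went from 4 regions to 0 without young 1 and 7 without young 2, and Glul from 5 to 1 and 7. Agt had positive values in 7 regions in all 3 fits, with medians of 0.12 to 0.19. Aqp4 had 3 positive regions (median -0.14), with 4 without young 1 and 2 without young 2, and Slc1a2 had 3 (-0.06), with 2 and 4. Without old 2, Aqp4 had 0 positive regions and Slc6a11 had 6. Slc1a3 had 3 (median -0.02), with 5 without young 1, 4 without young 2, 2 without old 1 and 7 without old 2. Of the 80 values, 54 changed sign in at least 1 alternative, the largest of them 0.296 in size. The regions of a section come from the same animal, so these counts are not independent.

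Aqp4 in isocortex had the lowest unadjusted p outside white matter. Its levels of 30.9 and 34.3, 31.2 and 31.5, and 27.4 and 27.4 CPM did not overlap between old and the younger groups. The change of -0.28 (95% interval -0.44 to -0.13, unadjusted p = 0.00158) was not called (adjusted p = 0.173), and was called without a filter on low counts (0.0299). Agt in amygdala and olfactory cortex had the largest value, 0.87 (adjusted p = 0.608), from 7.91 and 6.63, 6.70 and 10.1, and 11.7 and 15.9 CPM. These rest on few molecules, 27 and 36 UMIs in the old sections. Glul reached the threshold in hippocampal formation (0.49, adjusted p = 0.00238) and in amygdala and olfactory cortex (0.46, adjusted p = 0.00434) only without young 2, against 0.11 and 0.14 with all 6 sections. In those fits 11% and 0.832% of all genes were called, so that 1 of 8 members in the hippocampal formation was near the share of all genes.

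**Figure D5:**
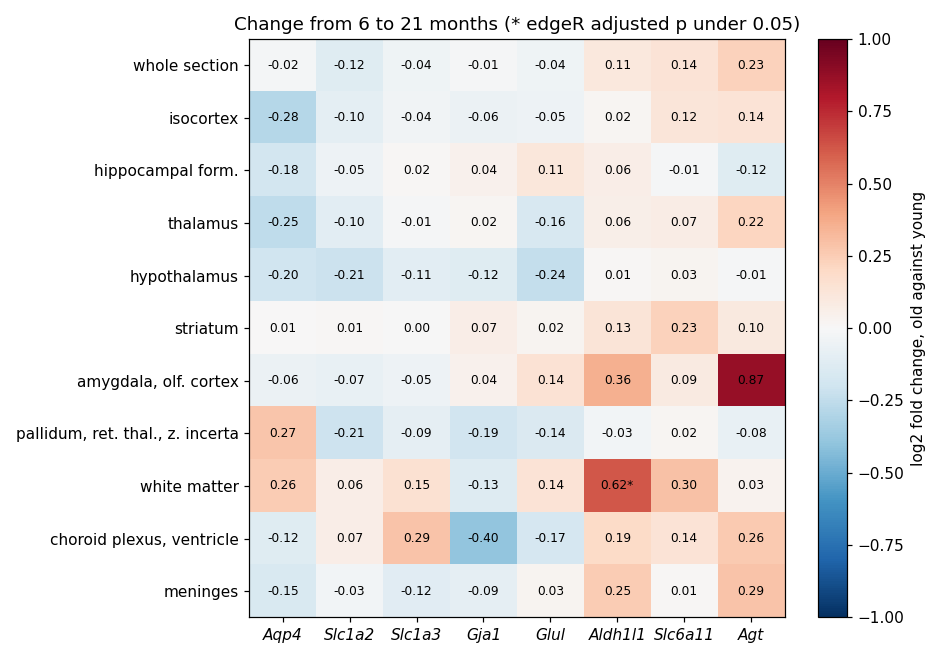
Log2 fold changes of old against young for the 8 genes (columns) in whole sections and 10 regions (rows), on a colour scale from -1 to 1. The only value that passed is Aldh1l1 in white matter (0.62), and the large Agt value in amygdala and olfactory cortex (0.87) did not pass.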

How the data were processed

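Deposited raw UMI counts per gene and spot, made by the authors, were used for 6 sections. Space Ranger is named as version 1.3.1 per the file headers and as version 3.1, with mm10, per the submitters' processing notes. The gene annotation is not given in the sources used here. The members and gene lists were chosen with earlier results of these data known.

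Of 16743 spots, 16741 with at least 500 UMIs were kept. Spots were clustered in scanpy 1.11.5 and leidenalg 0.10.2 (2000 variable genes without astrocyte genes, 30 principal components, 20 neighbours, resolution 0.8). A cluster was named from at least 3 markers of 1 region among its 50 leading genes. A marker of that region also had to be among the first 10 leading genes. The region needed at least 2 times as many markers as the next region. The 1739 spots of 4 unnamed clusters entered whole-section sums only and the comparison with other spots. A spot can hold several cells, and no doublet caller was run. UMIs were summed per section and region and tested with edgeR 4.0.16 (quasi-likelihood, TMM factors, filterByExpr) in R 4.3.3 over all 6 sections, with 3 residual degrees of freedom in a fit by age and Benjamini-Hochberg adjustment over all genes. DESeq2 1.42.0 and limma 3.58.1 were alternatives, with other filters, blocks, clusterings and each section left out. The code was tested on simulated data.

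All 8 members were named. From each list, up to 5 called genes a direction with a mean of at least 10 CPM were named by size of change, with Gfap and the 3 genes nearest to each member in pattern. Osmr and Timp1, and C4b in isocortex, all below that level, were named after their values were seen. The labels give 2 males per age and do not tie each section to an animal, so p-values measure the spread between these sections. Some genes of the marker lists are not reported here.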

Additional observations from a re-analysis of the deposited data

Results flagged for a closer look

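The change of Aldh1l1 from young to old differed between white matter and all other spots by 0.55 on the log2 scale (edgeR, adjusted p = 0.0182), by a test of that difference itself. All 4 older sections were above both young ones in white matter. The call did not hold with DESeq2, with limma or without any 1 of the young or old sections. In some of the fits without 1 of these sections, a member other than Aldh1l1 was called instead.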

How the results depend on the processing

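No member was called in whole sections under any alternative run. Among these was a fit without mitochondrially encoded, haemoglobin and immediate early genes. In isocortex, old against young, 1 member was called with no filter on low counts. In white matter, old against young, 0 members were called with DESeq2 and with slide as a block, and 2 in the subset of 120 spots, which was chosen after seeing the data. In middle against young there, 1 was called with no filter, with slide as a block, with only the groups compared and in the subset. For white matter against other spots, 0 were called with DESeq2 and with limma, and 4 in the subset. The subset itself was fitted with edgeR only, without alternatives. Leaving out 1 section gave 0 to 2 members called in white matter (old against young, and against other spots), 0 to 1 in middle against young, 0 to 1 in hippocampal formation in each comparison, and 0 to 1 in amygdala and olfactory cortex. The calls in these other regions came without young 2, where 1471 (old against young), 1208 (middle against young) and 1240 (against other spots) of all genes were called in hippocampal formation, or 11%, 9% and 7.11%, and 99 in amygdala and olfactory cortex (0.832%). In white matter against other spots, 2 were called without middle 1 or middle 2 and 0 without young 2. The cause was not tested. Hippocampal formation could not be fitted at resolutions 0.5 and 1.2, where it was unnamed or absent from young 1.

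The ratio between the 2 regions that were highest and lowest at resolution 0.8 was taken for the same regions in the other clusterings, where they need not be the extremes. It moved at resolution 1.2 to 3.32 for Slc1a2, 1.90 for Slc1a3 and 3.29 for Aldh1l1. At resolution 0.5 it was 2.56 for Gja1, 2.89 for Glul, 2.33 for Aldh1l1 and 8.29 for Slc6a11, and with the members kept among the clustering genes 2.51, 2.80, 2.34 and 8.34. Between the extremes of each clustering itself, Gja1 had 4.79 at resolution 1.2, against 3.28, and Slc1a3 had 1.95, against 2.27.

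Several log2 fold changes that were not called changed sign, among them Aqp4 (0.26) and Slc6a11 (0.30) in white matter. With slide as a block, whole sections gave 0.015 (old against young) and 0.0071 (middle against young) for Slc1a3, 0.012 for Gja1 (old against young), and 0.031 and 0.060 for Glul, and white matter gave -0.046 for Aqp4, -5.9e-05 for Slc6a11 and -0.40 for Agt. With equal numbers of spots, Gja1 was -0.022 in old against middle and Glul 0.025 in middle against young. White matter Agt was -0.0043 at resolution 0.5 and -0.21 in the subset, where Gja1 was 0.11.

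Leaving out 1 section, whole-section values of old against young ran from -0.15 to 0.10 for Aqp4, -0.13 to 0.043 for Slc1a3, -0.15 to 0.13 for Gja1, -0.22 to 0.17 for Glul and -0.054 to 0.36 for Slc6a11. Those of middle against young ran from -0.11 to 0.0052 for Aqp4, -0.16 to 0.12 for Gja1, -0.19 to 0.20 for Glul and -0.021 to 0.40 for Slc6a11. Those of old against middle ran from -0.10 to 0.16 for Aqp4, -0.080 to 0.095 for Slc1a3, -0.015 to 0.042 for Gja1, -0.12 to 0.067 for Glul, -0.042 to 0.040 for Aldh1l1, -0.10 to 0.030 for Slc6a11 and -0.087 to 0.13 for Agt. In white matter, old against young, they ran from -0.24 to 0.62 for Aqp4, -0.045 to 0.17 for Slc1a2, -0.27 to 0.0088 for Gja1, -0.0011 to 0.53 for Slc6a11 and -0.52 to 0.42 for Agt.

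With a replicate block, Aldh1l1 in white matter was 0.62 (adjusted p = 0.00551, edgeR) and Agt there was -0.015. The block changed no member's call. In the middle-aged and old groups the replicate number was also the slide, while both young sections were on the first slide. Replicate differences correlated at 0.0025 (young and middle), 0.20 (young and old) and 0.37 (middle and old). The part of the slide in these values was not tested.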
